A study of Homo sapiens with 18 samples.

Results

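The clustered protocadherins are cell surface adhesion proteins of the cadherin superfamily, encoded by 3 neighbouring gene clusters (α, β and γ) on chromosome 5. Members were taken as every protein-coding row of the normalized count table whose symbol, mapped from its Ensembl identifier, was PCDHA, PCDHAC, PCDHB, PCDHGA, PCDHGB or PCDHGC followed by digits alone. This gave 53 genes of the 35933 with values, because 1 of the 54 matching rows, PCDHA14, is annotated as a pseudogene. They were 13 alternate α genes, 2 αC genes, 16 β genes, 12 γA genes, 7 γB genes and 3 γC genes. All 53 lie on the plus strand of hg38 between 140786136 and 141512977 of chromosome 5 (GENCODE release 44), with the α cluster first and the γ cluster last. A mean of at least 10 normalized counts over the 18 libraries was reached by 24 of the 53. Those were PCDHA4, PCDHA6, PCDHA7, PCDHA10, PCDHA11, PCDHA12, PCDHAC1 and PCDHAC2 in the α cluster, and PCDHB1, PCDHB2, PCDHB4, PCDHB9, PCDHB10, PCDHB11, PCDHB12, PCDHB13 and PCDHB14 in the β cluster. In the γ cluster they were PCDHGB1, PCDHGA4, PCDHGB2, PCDHGA6, PCDHGA10, PCDHGB7 and PCDHGC3.

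Each α or γ gene has its own large first exon, with a promoter of its own, that is spliced to constant exons shared by its whole cluster. The first exon encodes the extracellular cadherin repeats and the membrane span, and the constant exons encode the common cytoplasmic tail. The β genes carry the whole protein on a single exon and lack such a tail. In neurons each cell uses a small, largely random set of the alternate promoters, so that neighbouring cells carry different surface codes and recognise their own kind by homophilic binding. Choice of a promoter depends on the architectural protein CTCF and on the cohesin ring, which bring it to distant enhancers, and on DNA methylation, which silences it. Most of these promoters hold a conserved sequence element with a CGCT core, and the promoter of PCDHB1 is among the few known to lack it. The C-type genes are read by other rules and are often common to all cells of a type. In epithelial tumours, breast carcinoma among them, the clusters are known for long stretches of methylated promoters.

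RNA sequencing covered 3 breast epithelial cell lines, each as a control line that had received negative CRISPR and as a line labelled METTL3 CRISPR knockdown, with 3 replicates (a, b and c) in each of the 6 groups. METTL3 is the catalytic subunit of the enzyme that methylates adenosine in mRNA. MCF10A is a spontaneously immortalized, non-tumorigenic line, MCF10AT1 was made from it by stable integration of mutated HRas, and MCF10CA1h came from MCF10AT1 through serial xenografts in mice. The edited lines came from transient transfection of Cas9 with a guide to exon 1 of METTL3, sorting and clonal selection, and 1 edited line and 1 control line stood for each cell line, so a difference between groups cannot be told apart from a difference between the 2 clones. The labels do not say that the replicates were separate cultures, and p-values measure only the spread between these libraries. In bulk RNA, fewer cells using a promoter and less RNA per cell cannot be told apart.

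The normalized counts of a library summed to between 21347400 and 31681800, and read depth is unknown. Control replicate b of MCF10AT1 stood apart, with 15812 genes at 0 against 9523 to 13264 in the other 17 libraries, and 28 of the 53 members were at 0 in it, against 2 to 25 elsewhere. METTL3 mRNA itself was 752, 686 and 459 in the MCF10A controls and 939, 981 and 509.8 in the libraries labelled METTL3, and the groups overlapped. In MCF10AT1 it was 968, 1016 and 805 against 816, 752 and 902, again with overlap. Only in MCF10CA1h did it pass the test, with 1022, 1102 and 1280.4 against 825, 745 and 843 and a log2 difference of -0.49 (SE 0.12, adjusted p 0.0234) by limma. The transcript level does not show whether an edit of exon 1 disabled the protein, so directions are given for libraries labelled METTL3. By Western blot, the study reported less METTL3 protein in its knockdown lines of each cell line, with a moderate loss in MCF10CA1h. Its real-time PCR showed a lesser decrease of METTL3 mRNA. The m6A level it measured fell significantly in MCF10AT1 and MCF10CA1h, and not significantly in MCF10A. Which of its knockdown lines was sequenced is not stated. The control libraries expressed basal epithelial genes, a list of 12 that summed to 627264 to 1084970 in MCF10A, 408199 to 419387 in MCF10CA1h and 179870 to 283629 in MCF10AT1. The MCF10AT1 libraries labelled METTL3 stood apart from the epithelial label: 9 of 12 basal and 9 of 12 general epithelial genes fell, 6 of 12 tested mesenchymal genes rose, and the mesenchymal list of 14 genes summed to 129468 to 215778 against 4256 to 5441. Of all genes tested in that line, limma called 5.96% lower and 7.07% higher. CDH1, the main epithelial cadherin, named after its values were seen, was 3475, 2105 and 6138 in MCF10AT1 controls and 11.6, 31.7 and 79.2 in the libraries labelled METTL3. In MCF10CA1h the basal list moved the other way, with 9 of 12 genes higher and a sum of 623726 to 738862 in METTL3-labelled libraries, while 3 mesenchymal genes of 13 tested were higher and 1 lower. Of all genes tested in MCF10CA1h, 7.91% were called higher and 4.85% lower. In MCF10A limma called 1 basal and 1 general epithelial gene, both higher, and 0 mesenchymal genes, where 2.65% of all tested genes were called. At an unadjusted p under 0.05 there were 7 basal, 4 general epithelial and 5 mesenchymal genes. The MCF10A basal sum of 602758 to 621433 in METTL3-labelled libraries nevertheless lay below all controls. The mesenchymal sum there was 6989 to 12557 against 10390 to 17324 in controls.

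RefSeq promoter windows (GRCh38.p14, 250 bases before to 50 after the gene start) were matched for 47 of the 53 members, and PCDHA3, PCDHA13, PCDHB6, PCDHB11, PCDHGA12 and PCDHGC5 had none in the table. The β promoters are shown because the β genes are those whose sums differed most between arms. Of 14 β windows, 13 held the 9 letters GGTGGCGCT, all on the plus strand, with their first base 84 to 2 bases before the start. The PCDHB1 window was the exception. These are the stretches of 39 bases around it for the β members called in a METTL3 comparison that had a window, with the 9 letters in capitals.
PCDHB4: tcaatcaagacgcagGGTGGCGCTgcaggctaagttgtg
PCDHB16: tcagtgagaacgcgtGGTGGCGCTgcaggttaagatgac
PCDHB9: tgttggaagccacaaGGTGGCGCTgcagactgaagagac
PCDHB10: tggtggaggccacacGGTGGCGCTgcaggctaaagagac
PCDHB12: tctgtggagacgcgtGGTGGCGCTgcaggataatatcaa
PCDHB13: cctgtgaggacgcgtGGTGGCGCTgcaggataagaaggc
PCDHB14: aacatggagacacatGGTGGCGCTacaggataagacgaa

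The PCDHB14 stretch lies at chr5:141223259-141223297 and that of PCDHB10 at chr5:141192295-141192333. The same 9 letters were in none of 13 α windows, none of 20 γ windows and 0.501% of all 35116 windows, either strand counted. They were chosen after the sequences were seen, and they contain the next motif and its last 4 letters. The motif GGCGCT was in 13 of 14 β, 1 of 13 α, 8 of 20 γ and 21.7% of all windows, and CGCT in 46 of the 47 members and 70.0% of all windows. Among letters of the CTCF core, AGGGGGC was in 0 of 47 member windows against 14.4% of all, and AGGTGGC, which can overlap GGTGGCGCT, was in 2 of 47 against 6.76%. All letters of AGGTGGC but the first are also in GGTGGCGCT, which 13 of 14 β windows held. Only these exact strings were searched, so their counts do not measure how many windows hold a CTCF site. TATAAA was in 6 of 47 members and 11.5% of all windows. Member windows were poorer in G and C than most, with medians of 37.3% for α, 40.8% for β and 42% for γ against 58.7% over all windows. The window of PCDHGC3, the highest member in all 18 libraries, is shown whole for contrast (chr5:141475716-141476015, plus strand), with CGCT and its reverse complement in capitals.
PCDHGC3: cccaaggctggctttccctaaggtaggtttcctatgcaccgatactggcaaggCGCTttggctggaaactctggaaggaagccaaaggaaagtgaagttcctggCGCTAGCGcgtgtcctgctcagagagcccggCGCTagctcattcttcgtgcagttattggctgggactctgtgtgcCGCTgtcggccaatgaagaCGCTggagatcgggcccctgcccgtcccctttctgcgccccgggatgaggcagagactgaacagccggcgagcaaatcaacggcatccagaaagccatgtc

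The expression of the clusters was uneven, and a single gene took much of it. PCDHGC3, a C-type γ gene, was at 1375, 1634 and 1837 normalized counts in MCF10A control a, b and c, at 1621, 1209 and 1508 in the MCF10AT1 controls and at 1533, 1493 and 1586 in the MCF10CA1h controls. It made up 80.1% ± 1.48 of the summed γ counts in MCF10A controls, 85.5% ± 10.9 in MCF10AT1 controls and 86.7% ± 2.44 in MCF10CA1h controls (SD, n = 3). The group means of PCDHGC3 spanned 1.75 times from lowest to highest, the flattest profile among the leading members. Per kilobase of transcript and averaged over the 18 libraries, PCDHGC3 stood at 347 counts, ahead of PCDHAC1 at 38.6, PCDHA12 at 27.2, PCDHB14 at 26.5 and PCDHGB2 at 24.7. PCDHAC2, PCDHA6, PCDHB2, PCDHA10 and PCDHB9 came next, from 19.7 to 11.2 per kilobase. The ranges over the libraries of all members after PCDHGC3 in that order overlapped with those of their neighbours.

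**Figure D1:**
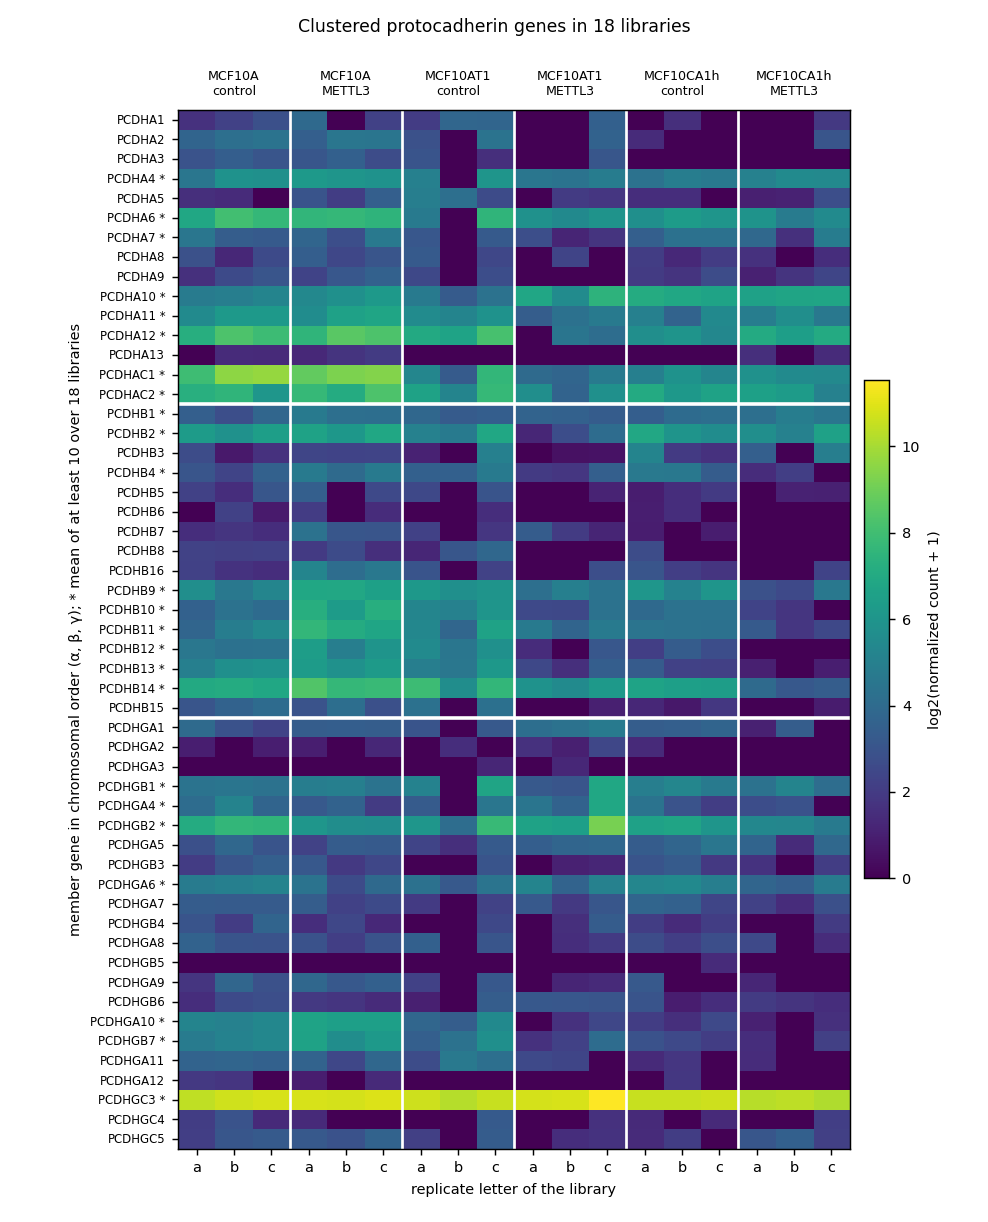
Heat map of log2(normalized count + 1) for the 53 members in chromosomal order (rows, α above β above γ) in the 18 libraries (columns, by group and replicate letter); an asterisk marks a mean of at least 10. PCDHGC3 is bright in all libraries, the β rows from PCDHB16 to PCDHB14 brighten in MCF10A METTL3 and darken in MCF10AT1 METTL3 and MCF10CA1h METTL3, and 28 members are at 0 in MCF10AT1 control b.

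The other 29 members had means below 10. The 7 α genes among them ranged from 0 to 29.3 over the libraries, the 7 β genes from 0 to 37.4 and the 15 γ genes from 0 to 25.1, and 6 of the 29 had a mean below 1. Reads of the α and γ genes can be split only on their first exons: the median share of 31-base words of a gene's exons that another gene or pseudogene of the clusters also holds was 53.7% for α, 44.6% for γ and 20.5% for β. Within β, PCDHB8 shared 55.9% and PCDHB10 41.8% of its words, against 17.1% for PCDHB14, so the value of a member with many shared words is less certain. Among the members called between arms without the replicate block, annotated antisense genes overlap PCDHB10, PCDHB11, PCDHB16, PCDHA10 and PCDHA12. Among the other members with a mean of at least 10 they overlap PCDHA6, PCDHAC2, PCDHB1, PCDHB2 and PCDHGB1. Whether the counting used strand is not given in the sources used here.

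Whether these genes differed in the edited lines was asked with the libraries labelled METTL3 against the controls inside each cell line, and the summed β counts were higher in MCF10A and lower in the other lines. The summed β counts of the MCF10A controls were 376, 372 and 431, and those of the MCF10A libraries labelled METTL3 were 1187, 769 and 919, a ratio of means of 2.44. In MCF10AT1 the β sums went from 554, 246 and 769.7 in controls to 138, 116 and 199, or 28.9% of the control mean. In MCF10CA1h they went from 422, 286 and 278 to 115, 83.3 and 191, or 39.4%. The 2 groups of β sums did not overlap in any of the 3 lines, with the METTL3-labelled libraries above the controls in MCF10A and beneath them in MCF10AT1 and MCF10CA1h. The basal epithelial sums were lower without overlap in MCF10A, where the β sums were higher, and their part was not tested. Taking every β gene whether or not it passed the filter, the group mean of the METTL3-labelled libraries was above the control mean for 14 of 16 in MCF10A and below it for 15 of 16 in MCF10AT1 and 15 of 16 in MCF10CA1h.

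**Figure D2:**
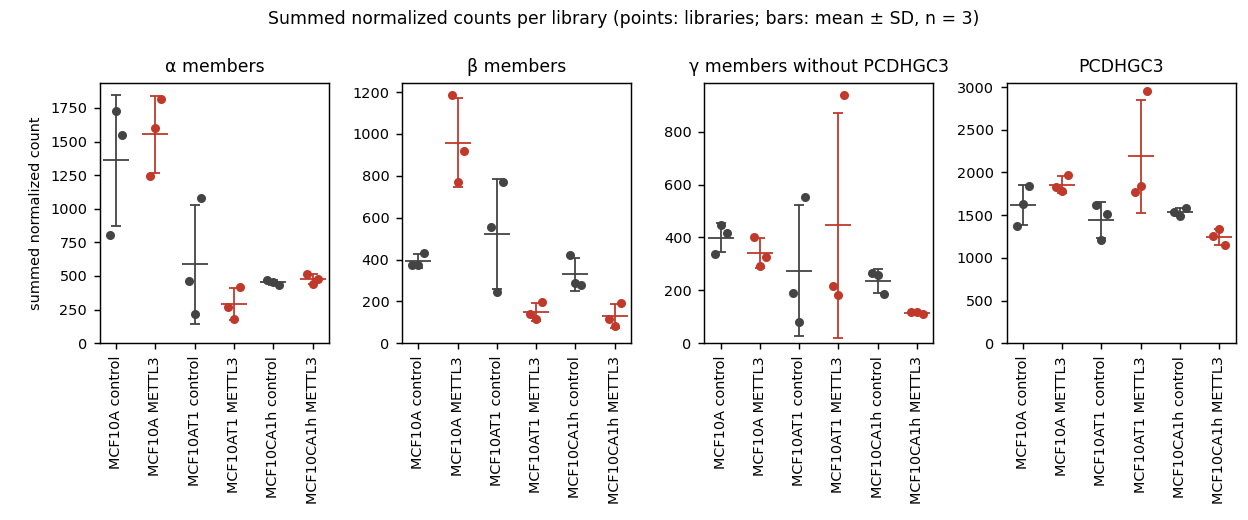
Summed normalized counts (vertical axes, linear from 0) of the α members, the β members, the γ members without PCDHGC3, and PCDHGC3 alone, by group; points are libraries and bars the mean ± SD of 3. The METTL3-labelled β sums lie above the control sums in MCF10A and under them in MCF10AT1 and MCF10CA1h.

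The α and γ sums moved otherwise. The α sums overlapped between the arms of all 3 lines, with 808, 1727 and 1549.7 against 1246, 1601 and 1813 in MCF10A, 462, 221 and 1080.3 against 269.9, 183 and 419 in MCF10AT1, and 472, 455 and 434 against 515, 442 and 475 in MCF10CA1h (control first). Without PCDHGC3 the γ sums of MCF10CA1h were 264, 257 and 185 in controls and 117, 117 and 112 in METTL3-labelled libraries, with no overlap. In MCF10A they were 338, 445 and 416 against 403, 291 and 326, and in MCF10AT1 188, 81.3 and 554 against 216, 183 and 937, with overlap in both lines.

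Each line was then fitted by limma on log2(normalized count + 1) across all genes that averaged 10 or more in its 6 libraries, and a gene was called where the Benjamini-Hochberg adjusted p was under 0.05. In MCF10A 28 of the 53 members were tested, 4 were higher and 1 was lower in the METTL3-labelled libraries, where 2.65% of all tested genes were called. In MCF10AT1 24 were tested, 1 was higher and 3 were lower, against 13% of all genes, and in MCF10CA1h 20 were tested, 1 was higher and 5 were lower, against 12.8%. The MCF10AT1 share of 4 in 24 was therefore near its background. For the β genes alone, 3 of 11 tested were higher in MCF10A (1.16% of all genes were), 2 of 9 lower in MCF10AT1 (5.96%) and 4 of 7 lower in MCF10CA1h (4.85%). Counted by groups that did not overlap, 8 of 11 β genes were higher in MCF10A (10.5% of all genes), 6 of 9 were lower in MCF10AT1 (15.6%) and 4 of 7 were lower in MCF10CA1h (15.3%). The median β log2 difference was 1.37, -1.50 and -1.82 in that order of lines, where the median of all tested genes was between -0.0191 and 0.0212. Since a gene passed the filter more easily where 1 arm was high, these tested members are not the whole cluster.

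The counts of called members rested on few libraries. In MCF10A the count of 5 was 0 without METTL3 replicate a or c, 1 without METTL3 replicate b or control b, and 2 without control c. In MCF10AT1 the count of 4 was 0 without control a or c, 1 without METTL3 a, 2 without METTL3 b, and 3 without control b, the library that stood apart. In MCF10CA1h the count of 6 was 1 without control a and 3 without control b or c. The replicate letters went together within MCF10A and MCF10AT1, and a fit with the letter as a block called 10 members in MCF10AT1, 3 of them higher and 7 lower.

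**Figure D3:**
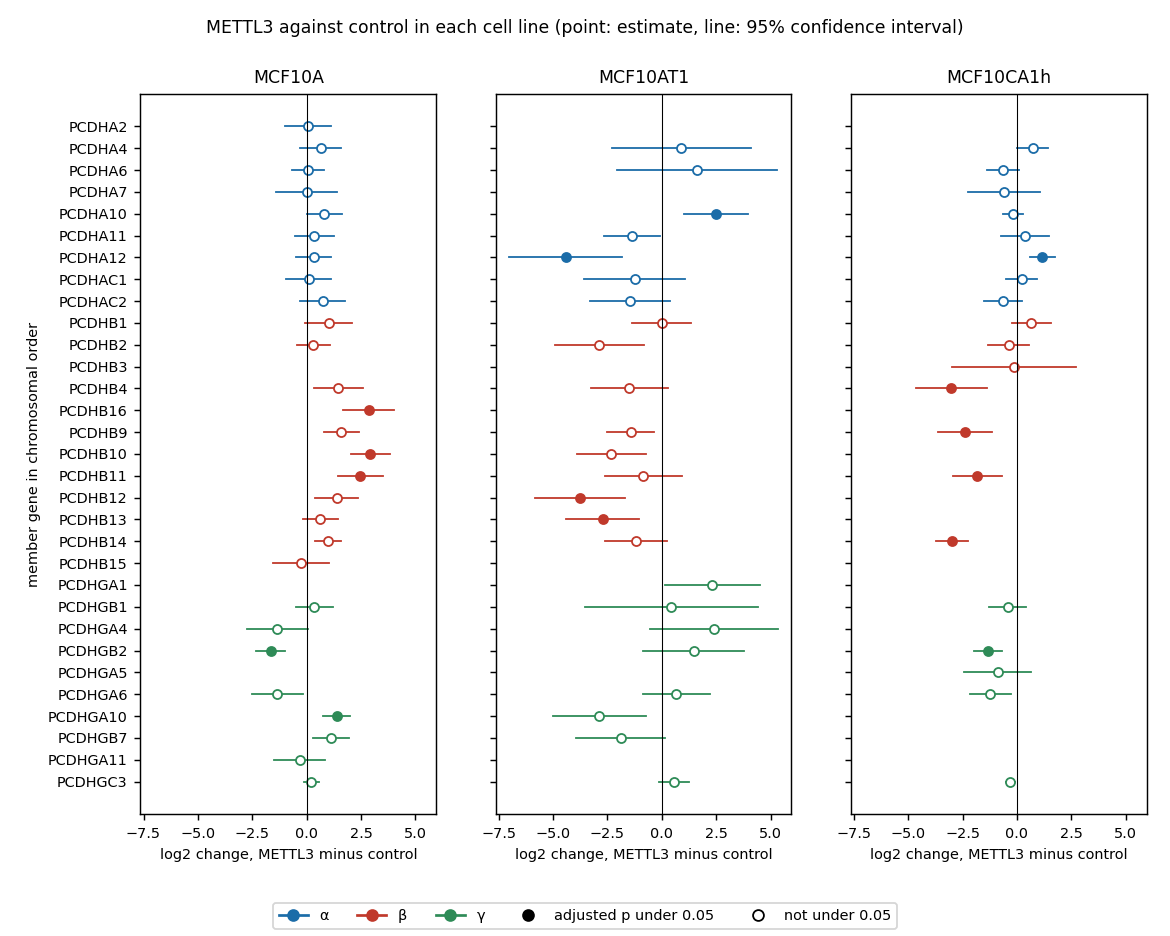
Log2 difference between METTL3-labelled and control libraries (horizontal axis, log2(normalized count + 1) scale) with its 95% confidence interval for each tested member in chromosomal order, one panel for each cell line; blue is α, red β and green γ, and filled points have an adjusted p under 0.05. The red points lie mostly right of 0 in MCF10A and mostly left of 0 in MCF10AT1 and MCF10CA1h.

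PCDHB10, a β gene in the middle of the cluster, had the largest called rise in MCF10A. PCDHB10 stood at 10.9, 19.5 and 15.4 in MCF10A control a, b and c and at 147, 78.5 and 147 in METTL3 a, b and c. The means were 15.3 ± 4.28 and 124 ± 39.6 (SD, n = 3), 8.14 times apart, with every METTL3-labelled library above every control. This was a log2 difference of 2.92 (SE 0.39) with an adjusted p of 0.013 (limma), and it was called in 4 of the 6 fits that left out 1 library, with a highest adjusted p of 0.0713. For PCDHB10 the MCF10AT1 controls held 36.9, 32.6 and 63.2 and the METTL3-labelled libraries 4.77, 4.64 and 19.1, again without overlap but the other way round. That difference was not called without the block (-2.32, SE 0.69, limma adjusted p 0.0639) and was called with it (limma adjusted p 0.0234). There PCDHB10 passed the filter through its controls alone, so it could be called only as a fall. PCDHB10 in MCF10CA1h was at 14.3, 19.6 and 19.4 in controls and 3.95, 2.39 and 0 in METTL3-labelled libraries, each of which was lower than each control, and the gene was too low there to be tested.

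PCDHB11 and PCDHB16, its neighbours in the same stretch, also rose in MCF10A. PCDHB11 went from 12.7, 28.9 and 40.7 in MCF10A controls to 197, 135 and 108, with all METTL3-labelled libraries higher, a log2 difference of 2.47 (SE 0.46) with an adjusted p of 0.0343 (limma). The call held in 2 of the 6 fits that left out 1 library. PCDHB11 in MCF10CA1h went the other way, from 20.9, 19.1 and 18.5 to 8.72, 2.57 and 4.63, a log2 difference of -1.82 (SE 0.51) with an adjusted p of 0.0429 (limma) that held in 1 of the 6 fits that left out 1 library. There PCDHB11 passed the filter through its controls alone, so it could be called only as a fall. PCDHB11 in MCF10AT1 overlapped between arms, at 39.1, 12.8 and 98.7 in controls and 26.2, 12.1 and 25.5 in METTL3-labelled libraries. PCDHB16 was near the floor in MCF10A controls, at 3.67, 2.26 and 1.88, and reached 37.4, 16.4 and 23.9 in METTL3-labelled libraries. It passed the filter only through the METTL3-labelled libraries, where its log2 difference of 2.86 (SE 0.51) with an adjusted p of 0.0316 (limma) therefore had to be a rise, and the call held in 1 of the 5 fits that left out 1 library. PCDHB16 values in MCF10AT1 (7.02, 0 and 3.82 against 0, 0 and 5.81) and in MCF10CA1h (7.31, 3.39 and 2.43 against 0, 0 and 3.93) overlapped between arms and were not tested.

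PCDHB14, the highest β gene per kilobase, had the firmest fall. PCDHB14 in MCF10CA1h was at 102, 89.4 and 83.7 in control a, b and c and at 15.1, 8.0 and 9.7 in METTL3 a, b and c. The control mean of 91.7 ± 9.36 was 8.39 times the METTL3-labelled mean of 10.9 ± 3.68 (SD, n = 3), far beyond the spread of either group. The log2 difference of -2.998 (SE 0.33) with an adjusted p of 0.000364 (limma) was called in 6 of the 6 fits that left out 1 library, with a highest adjusted p of 0.00378. PCDHB14 in MCF10A was at 125, 136 and 115 in controls and 332, 202 and 226 in METTL3-labelled libraries, which were all higher, and this did not pass the test (0.98, SE 0.25, limma adjusted p 0.0892). PCDHB14 in MCF10AT1 was at 239.8, 50.02 and 195 and 57.7, 44.6 and 72.4, where control b fell among the METTL3-labelled values. As a share of the β sum, PCDHB14 was 28.5% ± 3.8 in MCF10CA1h controls and 9.27% ± 4.03 in METTL3-labelled libraries (SD, n = 3), so it was lower relative to the rest of its cluster as well.

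PCDHB9 and PCDHB4 were also lower in MCF10CA1h, where the basal epithelial sum was higher, and its part in these falls was not tested. PCDHB9 went from 65.4, 34 and 63.1 in controls to 6.25, 4.89 and 23.8, a log2 difference of -2.38 (SE 0.55) with an adjusted p of 0.0197 (limma) that held in 3 of the 6 fits that left out 1 library. PCDHB4 went from 24.4, 23.7 and 9.08 to 1.72, 3.45 and 0, a log2 difference of -3.01 (SE 0.73) with an adjusted p of 0.0232 (limma) that held in 3 of the 4 fits that left out 1 library, and it passed the filter through its controls alone. Neither gene had overlapping arms in MCF10CA1h. In the other lines PCDHB9 was at 51.2, 23.5 and 36.6 in MCF10A controls against 115, 118 and 91.9, and at 70.9, 52.4 and 60.9 in MCF10AT1 controls against 17.6, 30.2 and 19.7, apart in both, upward in the first and downward in the second. Neither passed the test (limma adjusted p 0.0598 and 0.0859), and with the replicate block the MCF10A difference of PCDHB9 was called (limma adjusted p 0.0344). PCDHB4 was at 7.23, 4.21 and 11.1 against 25.6, 14.7 and 24.8 in MCF10A and at 10.4, 10.6 and 25.5 against 2.92, 2.52 and 10.3 in MCF10AT1, neither called.

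PCDHB12 and PCDHB13, side by side in the cluster, were the β genes called lower in MCF10AT1 without the replicate block. PCDHB12 went from 44.8, 22.1 and 54.9 in MCF10AT1 control a, b and c to 1.75, 0 and 7.64, a log2 difference of -3.76 (SE 0.90) with an adjusted p of 0.0293 (limma) that held in 2 of the 6 fits that left out 1 library. PCDHB13 went from 29.8, 23.1 and 69 to 4.62, 1.98 and 9.76, a log2 difference of -2.72 (SE 0.74) with an adjusted p of 0.0462 (limma) that held in 2 of the 6 fits that left out 1 library. The arms of both genes were apart in MCF10AT1, and both passed the filter through the controls alone. These falls accompanied low general epithelial and high mesenchymal sums in the MCF10AT1 libraries labelled METTL3. The general epithelial sums there were 24157 to 48562 against 64082 to 96048 in controls. The basal epithelial sums overlapped, at 60388 to 182107 against 179870 to 283629 in controls. The part of these sums in the result was not tested. PCDHB12 in MCF10CA1h was at 3.45, 9.24 and 5.56 in controls and at 0 in all 3 METTL3-labelled libraries, and PCDHB13 at 9.02, 3.67 and 3.55 and 1.02, 0 and 0.97, below the filter in both cases. In MCF10A, PCDHB12 was at 22.4, 18.8 and 19.5 against 83.7, 29.96 and 61.9 and PCDHB13 at 30.2, 52.5 and 58.3 against 78.9, 56.6 and 76.6, higher in the METTL3-labelled mean but not called.

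**Figure D4:**
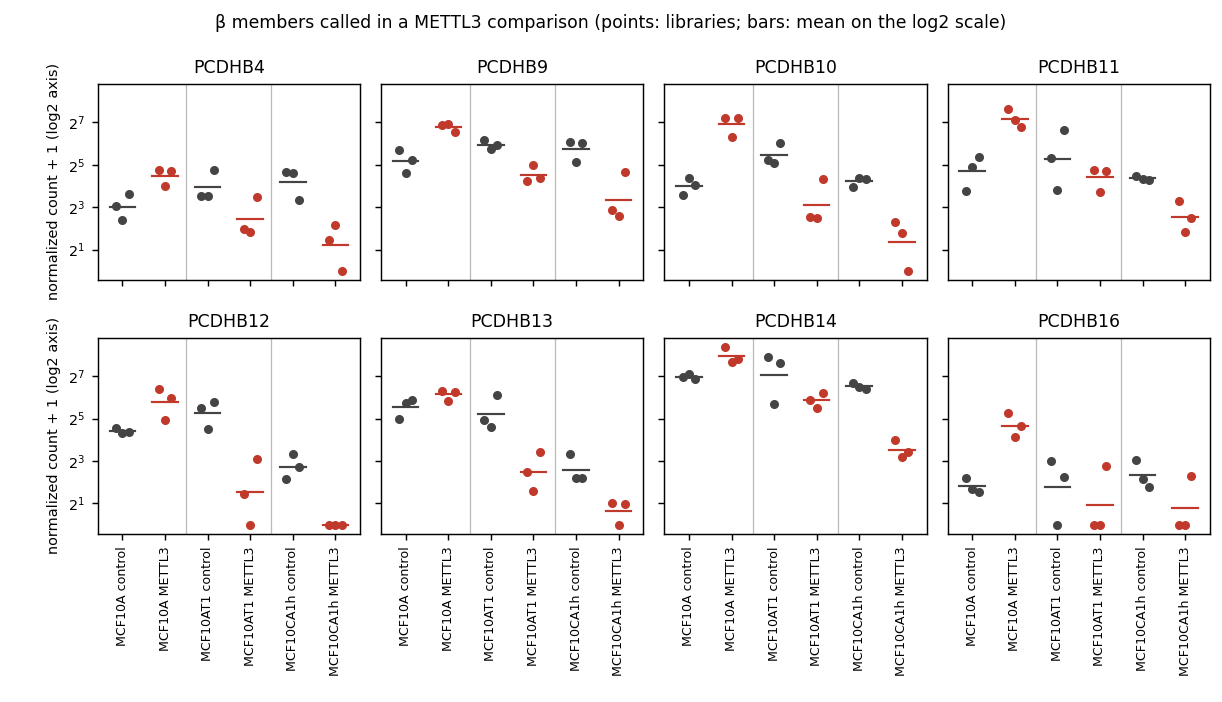
Normalized count + 1 (log2 axis) of 8 β members in each library by group. The 8 were chosen because they were called inside at least 1 cell line without the block. Black is control, red METTL3-labelled, points are libraries and bars the mean on the log2 scale. In all 8 panels the red bar lies above the black bar in MCF10A and below it in MCF10AT1 and MCF10CA1h. Over all 16 β genes, mean counts went that way for 14 in MCF10A, 15 in MCF10AT1 and 15 in MCF10CA1h.

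PCDHB2 and PCDHB1 lie at the start of the cluster. PCDHB2 was at 79.3, 56.5 and 88.3 in MCF10A controls and 98.5, 66.7 and 116 in METTL3-labelled libraries, and at 119.9, 61.3 and 47.5 against 50.5, 32.2 and 94.7 in MCF10CA1h, overlapping in both lines. In MCF10AT1, PCDHB2 was at 32.2, 25.9 and 115 against 1.39, 5.66 and 15.7, without overlap, and was called only with the replicate block (log2 difference -2.87, SE 0.90, limma adjusted p 0.0742 without it and 0.0111 with it). There PCDHB2 passed the filter through its controls alone, so it could be called only as a fall. PCDHB1 was not called in any line. Its log2 difference had a 95% interval of -0.06 to 2.08 in MCF10A, -1.36 to 1.36 in MCF10AT1 and -0.23 to 1.54 in MCF10CA1h, and its arms were apart, METTL3-labelled above control, in MCF10A and MCF10CA1h. Among the 16 β genes, PCDHB1 alone had a higher METTL3-labelled mean in MCF10CA1h.

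In the α cluster, single alternate genes changed in opposite directions within a line. PCDHA12 and PCDHA10 are both alternate α genes. PCDHA12 in MCF10AT1 went from 129, 101 and 284 in controls to 0, 21.3 and 16.3, and PCDHA10 from 25, 8.93 and 19.3 to 111, 46.8 and 175. Neither gene's arms overlapped. PCDHA12 gave a log2 difference of -4.42 (SE 1.14) with an adjusted p of 0.0383 (limma) that held in 3 of the 6 fits that left out 1 library, and PCDHA10 a log2 difference of 2.50 (SE 0.64) with an adjusted p of 0.0383 (limma) that held in 1 of the 6 fits that left out 1 library. As shares of the summed α counts in MCF10AT1, PCDHA12 was 33.4% ± 10.8 in controls and 5.17% ± 5.92 in METTL3-labelled libraries, and PCDHA10 was 3.75% ± 1.83 and 36.2% ± 9.21 (SD, n = 3). The leading α gene of the METTL3-labelled MCF10AT1 line was thus PCDHA10, and that of its control line PCDHA12. The sums of general epithelial and mesenchymal genes moved with these changes too, and their part was not tested.

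PCDHA12 rose in MCF10CA1h, from 50.9, 62.2 and 39.3 in controls to 131, 86.7 and 131, without overlap. This was a log2 difference of 1.17 (SE 0.27) with an adjusted p of 0.0177 (limma) that held in 2 of the 6 fits that left out 1 library. In MCF10A, PCDHA12 overlapped at 151, 318 and 239 against 187, 378 and 320.4. PCDHA10 was at 26.8, 29.8 and 35.8 against 40.5, 54.7 and 72.7 in MCF10A and at 134, 116 and 101 against 95.3, 104 and 109 in MCF10CA1h, not called in either.

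The other leading α genes were not called between arms. PCDHAC1, a C-type gene, was at 243, 748 and 822 in MCF10A controls and 429, 618 and 673 in METTL3-labelled libraries, at 37.6, 8.8 and 199.5 and 14.9, 12.7 and 25.5 in MCF10AT1, and at 30.6, 58.6 and 36.9 and 56.2, 44.1 and 42.2 in MCF10CA1h. Its arms overlapped in each line. PCDHAC2 was at 153, 188 and 66 and 207, 134 and 315 in MCF10A, 99.99, 35.8 and 209 and 51.3, 11.7 and 54.2 in MCF10AT1, and 133, 70.7 and 98.7 and 91.7, 78.1 and 32 in MCF10CA1h. Its arms overlapped in all of them, and in MCF10AT1 PCDHAC2 was called only with the replicate block (-1.47, SE 0.80, limma adjusted p 0.28 without it and 0.0495 with it). PCDHA6 was at 115, 261 and 204 and 194, 202 and 179.8 in MCF10A, 26, 0 and 188 and 55.5, 43.1 and 60.1 in MCF10AT1, and 53, 80.3 and 62.8 and 60.1, 26.7 and 44.1 in MCF10CA1h. Its 0 in MCF10AT1 control b left its MCF10AT1 difference with a 95% interval of -2.04 to 5.31 on the log2 scale. PCDHA4, PCDHA7 and PCDHA11 were likewise not called in any line, and PCDHA7 was too low to be tested in MCF10AT1. Without overlap, PCDHA4 was higher in the METTL3-labelled libraries of MCF10A and MCF10CA1h, and PCDHA11 was lower in those of MCF10AT1.

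In the γ cluster, PCDHGB2 and PCDHGA10 were called, while PCDHGC3 was not. PCDHGB2 in MCF10A fell from 135, 199 and 187 in controls to 65.7, 48.7 and 47.4, a log2 difference of -1.66 (SE 0.28) with an adjusted p of 0.0259 (limma) that held in 1 of the 6 fits that left out 1 library. PCDHGB2 in MCF10CA1h fell from 97.1, 105 and 63.8 to 39, 38.3 and 26.1, a log2 difference of -1.32 (SE 0.29) with an adjusted p of 0.0153 (limma) that held in 4 of the 6 fits that left out 1 library. Neither comparison had overlapping arms. PCDHGB2 in MCF10AT1 was at 66.1, 16.2 and 216 and 98.3, 89.96 and 574, wide and overlapping, and its difference of 1.46 (SE 1.01) was called only with the replicate block (limma adjusted p 0.396 without it and 0.0376 with it). Replicate c was the highest of its group in both arms.

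PCDHGA10 in MCF10A rose from 35.3, 32.4 and 40.04 to 103, 89.6 and 90.7, a log2 difference of 1.37 (SE 0.28) with an adjusted p of 0.0441 (limma) that held in 1 of the 6 fits that left out 1 library. Its arms were tight and apart. PCDHGA10 in MCF10AT1 was at 13.1, 9.43 and 43.5 and 0, 2.09 and 4.46, called only with the replicate block (-2.87, SE 0.94, limma adjusted p 0.0856 without it and 0.0363 with it), and in MCF10CA1h all 6 values were under 5. The filter in MCF10AT1 was passed by PCDHGA10 through its controls alone, so it could be called only as a fall. PCDHGA4 was the remaining member called in MCF10AT1 with the block alone (2.41, SE 1.28, limma adjusted p 0.268 without it and 0.0387 with it). PCDHGB1, PCDHGA6 and PCDHGB7 were called in no line, and PCDHGB7 was too low to be tested in MCF10CA1h. Without overlap in MCF10A, PCDHGB7 was higher and PCDHGA4 and PCDHGA6 were lower in the METTL3-labelled libraries. PCDHGA6 was also lower without overlap in those of MCF10CA1h. PCDHGC3 reached 1826, 1780.4 and 1965 in METTL3-labelled libraries of MCF10A, 1770.1, 1846 and 2955 in those of MCF10AT1 and 1257, 1339.8 and 1153 in those of MCF10CA1h. Its differences from the controls given above were 0.21 (SE 0.16), 0.57 (SE 0.30) and -0.30 (SE 0.10) in that order, with limma adjusted p values of 0.533, 0.257 and 0.0781. PCDHGC3 overlapped between arms in MCF10A, was higher in all METTL3-labelled libraries of MCF10AT1 and lower in all those of MCF10CA1h.

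How the clusters differ between the stages was asked with the 9 control libraries, where 24 members were tested. Between MCF10AT1 and MCF10A controls, 2 of 24 members differed, fewer by share than the 28.1% of all genes. Between MCF10CA1h and MCF10A, 7 of 24 differed (37.8% of all genes), and between MCF10CA1h and MCF10AT1 6 of 24 (21.8%). As shares of the tested members these were 29.2%, under that of all genes, and 25%, near it. All 3 comparisons share controls and are not independent. PCDHAC1, at 604 ± 315 in MCF10A (SD, n = 3), was at 82 ± 103 in MCF10AT1, a log2 difference of -3.65 (SE 0.93) with an adjusted p of 0.0209 (limma), and at 42 ± 14.7 in MCF10CA1h, a log2 difference of -3.68 (SE 0.93) with an adjusted p of 0.0134 (limma). Of the 6 fits that left out 1 library, PCDHAC1 was called in 3 for MCF10AT1 and in 4 for MCF10CA1h. PCDHB10 was 2.9 times higher in MCF10AT1 controls than in MCF10A controls, a log2 difference of 1.45 (SE 0.42) with an adjusted p of 0.0311 (limma) that held in 1 of the 6 fits that left out 1 library.

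PCDHA10 was the member that rose in MCF10CA1h, to 117 ± 16.5 from 30.8 ± 4.58 in MCF10A and 17.8 ± 8.15 in MCF10AT1 (SD, n = 3). Its log2 differences were 1.90 (SE 0.41) and 2.76 (SE 0.41), with limma adjusted p values of 0.0064 and 0.00183, and both held in all 6 of the fits that left out 1 library. PCDHA12, PCDHB12, PCDHB13, PCDHGA10 and PCDHGB7 were lower in MCF10CA1h than in either other line, by log2 differences of -1.66 (PCDHB12) to -3.15 (PCDHGA10) against MCF10A and -1.61 (PCDHA12) to -2.64 (PCDHB13) against MCF10AT1. Against MCF10A, PCDHB12 was called in 1 of the 6 fits that left out 1 library and the others in all 6. Against MCF10AT1, PCDHB12 and PCDHB13 were called in all 6, and PCDHA12, PCDHGA10 and PCDHGB7 in 2 of 6. All of these genes but PCDHA12 had a MCF10CA1h mean below 10 and passed the filter through the other lines. PCDHB13, for example, was at 47 ± 14.9 in MCF10A, 40.6 ± 24.8 in MCF10AT1 and 5.41 ± 3.12 in MCF10CA1h. Between MCF10AT1 and MCF10A controls the count of 2 was 0 without MCF10A control b or c or MCF10AT1 control a, 1 without MCF10A control a, and 6, all lower, without MCF10AT1 control c. For MCF10CA1h against MCF10AT1, the count of 6 was 3 without MCF10CA1h control a or c.

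Whether the lines responded differently was tested directly as the difference of the METTL3 differences in a fit of all 18 libraries, again with 24 members tested. Against MCF10A, the METTL3 difference was lower in MCF10CA1h for 6 members and higher for none. All 6 were β genes: PCDHB4, PCDHB9, PCDHB10, PCDHB11, PCDHB12 and PCDHB14. Within MCF10CA1h, PCDHB10 (means of 17.8 in controls and 2.11 in METTL3-labelled libraries) and PCDHB12 (6.08 and 0) were below the filter. Those 2 genes entered this fit through the other lines. Of all tested genes 5.34% were called in either direction and 1.69% lower. PCDHB10 had a log2 difference of -5.78 (SE 0.84) with an adjusted p of 0.000675 (limma), PCDHB9 one of -3.96, SE 0.68 (limma adjusted p 0.00242) and PCDHB14 one of -3.97, SE 0.64 (limma adjusted p 0.00139). The count was 5 or 6 in each of the 12 fits that left out 1 library, and 5 of the 6 genes were called in all of them. PCDHB12 was not called without MCF10A METTL3 replicate a (limma adjusted p 0.0518), and PCDHB13 was called in addition with the block (-2.53, limma adjusted p 0.0379).

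Between MCF10AT1 and MCF10A, 12 members differed in the METTL3 difference, 11 of them lower in MCF10AT1, where 21.6% of all genes were called and 10.5% were lower. Of the 9 tested β genes, 8 were among the 11, with log2 differences from -2.18 (SE 0.64) for PCDHB14 to -5.24 (SE 0.84) for PCDHB10 (limma adjusted p 0.0205 and 0.000267). PCDHB1 was the β gene not called. PCDHA12, PCDHGA10 and PCDHGB7 made up the rest of the 11, and PCDHGB2 was the member higher in MCF10AT1 without the block, by 3.12, SE 1.03 (limma adjusted p 0.0398). Of the 12 fits that left out 1 library, PCDHGB2 and PCDHGB7 were called in 4, PCDHB4 in 6, PCDHB2 in 8 and PCDHB14 in 9. The other members of this comparison were called in all 12 fits. With the replicate letter as a block within each line 4 were higher and 12 lower, adding PCDHA10 (1.68, limma adjusted p 0.0157), PCDHGA4 (3.77, limma adjusted p 0.00667) and PCDHGA6 (2.02, limma adjusted p 0.0494) to the higher and PCDHAC2 (-2.20, limma adjusted p 0.0303) to the lower. This comparison and the one before it share the 6 MCF10A libraries. Without MCF10AT1 control b, the library that stood apart, 14 members were called, all lower. Between MCF10CA1h and MCF10AT1 3 of 24 members differed (18.2% of all genes), none of them β without the block: PCDHA10 by -2.68 (SE 0.61), PCDHA12 by 5.59 (SE 1.15) and PCDHGC3 by -0.87 (SE 0.27), with limma adjusted p values of 0.00549, 0.00247 and 0.0327. PCDHGC3 was called in 6 of the 12 fits that left out 1 library, and PCDHA10 and PCDHA12 in all 12. The count of 3 was 7 without MCF10AT1 control b or c. It was also 7 with the replicate letter as a block within each line, which added PCDHGA4, PCDHGB2 and the β genes PCDHB2 (2.48, limma adjusted p 0.0179) and PCDHB14 (-1.79, limma adjusted p 0.0256), so that β genes were then among those called.

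Genes known to act on these promoters or with these proteins were counted by list. Of 26 regulators (CTCF, cohesin and its loaders, DNA methyltransferases, histone methyltransferases and related factors), limma called 0 in MCF10A and 0 in MCF10AT1, with 3 and 2 at an unadjusted p under 0.05. The shares of all tested genes called were 2.65% in MCF10A and 13% in MCF10AT1. In MCF10CA1h 5 of 26 fell in METTL3-labelled libraries, where 4.85% of all genes were called lower. The 3 largest were NIPBL, the cohesin loader, at -0.75 (SE 0.19, adjusted p 0.0291), SMC3, a cohesin subunit, at -0.66 (SE 0.12, adjusted p 0.00718), and EHMT1, a histone H3 lysine methyltransferase, at -0.65 (SE 0.16, adjusted p 0.0231) (limma, log2 differences). Their part in the β falls of that line was not tested. Of 20 tested genes for kinases and actin regulators that act downstream of protocadherins, limma called 0 in MCF10A and 0 in MCF10AT1, with 8 and 5 at an unadjusted p under 0.05, and in MCF10CA1h 1 fell, CYFIP2, a subunit of the WAVE actin complex, at -0.85 (SE 0.22, adjusted p 0.0274).

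Of the protocadherins and large cadherins outside the clusters 11 were tested, and limma called 1 in MCF10A (2.65% of all genes), 3 in MCF10AT1 (13%) and 2 in MCF10CA1h (12.8%). CELSR2 was the gene called in MCF10A, higher at 1.30 (SE 0.22, adjusted p 0.0266), and it was lower in MCF10CA1h at -0.999 (SE 0.11, adjusted p 0.000293) by limma. In MCF10AT1, PCDH9 and PCDH7 rose by 4.36 (SE 0.57, adjusted p 0.0017) and 3.30 (SE 0.47, adjusted p 0.00256), and PCDH1 changed by -3.50 (SE 0.56, adjusted p 0.00488). FAT2 fell in MCF10CA1h, at -0.41 (SE 0.11, adjusted p 0.0367). Of 32 other RefSeq protein-coding genes within 500 kilobases of the clusters or between them, 27 were tested in each line. In MCF10A 1 was called, SRA1 (-0.70, SE 0.14, adjusted p 0.0406), in MCF10AT1 1, PCDH1, which lies after the γ cluster, and in MCF10CA1h 2, CD14 (-1.14, SE 0.26, adjusted p 0.0167) and FCHSD1 (0.79, SE 0.16, adjusted p 0.01001), all by limma. For these neighbours the median log2 difference was -0.14, 0.19 and 0.11 in the order MCF10A, MCF10AT1, MCF10CA1h, and for the β genes it was 1.37, -1.50 and -1.82. Markers of neurons, the cells in which the clusters are best known, summed over a list of 12 genes (8 with values) to 945 to 1353 in MCF10A controls and 417 to 739 in the METTL3-labelled libraries, to 1215 to 1946 and 2111 to 3589 in MCF10AT1, and to 1700 to 1859 and 2964 to 4649 in MCF10CA1h. TUBB3, a tubulin that dividing cells also make, named after its values were seen, held most of these sums, while SNAP25, ELAVL3 and DCX were at or near 0 in nearly all libraries. The neuronal sum moved opposite to the β sum in each line, and its part was not tested.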

How the data were processed

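Per the labels and the study's methods, the authors pseudoaligned reads with kallisto 0.46.1 to the hg38 transcriptome, imported them with tximport and normalized them with DESeq2 1.26.0. The annotation release and whether the counting used strand are not given in the sources used here. The labels name both poly-A RNA and a ribosomal RNA depletion kit. The deposited values are normalized counts with 2 decimals, a signal scaled by DESeq2 and not raw counts, in 35933 genes and 18 libraries. A further 24646 rows held no gene values and were not used. Reads could not be recovered (at most 50.2% of low values were whole multiples of 1 step), so no count test was run.

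The members and lists were chosen with earlier results of these data known. Tests used limma 3.58.1 in R 4.3.3 (eBayes with trend, two-sided) on log2(value + 1) of genes averaging 10 or more in the fitted libraries, with Benjamini-Hochberg adjustment over all tested genes, so a fold change understates that of low genes. Each cell line was fitted alone, the 9 controls together, and line differences in all 18 libraries. The test was checked on simulated data. Named genes were every member with a mean of at least 10, with values per library for those called in a METTL3 comparison and for the 10 highest means, and at most the 3 largest called changes per other list. Motif GGTGGCGCT and the markers given singly were chosen after the data were seen. Per-kilobase levels used the GENCODE 44 canonical transcript length. Same-letter libraries deviated together in MCF10A (r of 0.221, 0.200 and 0.116 for a, b and c over 15897 genes) and MCF10AT1 (0.110, 0.289 and 0.477), but not in MCF10CA1h (-0.011 to 0.046). This pairing comes from the data, not the labels. Alternatives were pseudocounts of 0.5 and 5, no filter or a mean of at least 50, no trend, equal library sums, the replicate block, an adjusted p of 0.01, a joint fit, and each library left out.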

Additional observations from a re-analysis of the deposited data

Results flagged for a closer look

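The METTL3 difference differed between cell lines for the members that follow, by the limma contrast of 2 lines in the fit of all 18 libraries. It was lower in MCF10AT1 than in MCF10A by a log2 difference of -4.74 for PCDHA12, -3.18 for PCDHB2, -2.96 for PCDHB4, -3.02 for PCDHB9, -5.24 for PCDHB10, -3.32 for PCDHB11, -5.13 for PCDHB12, -3.34 for PCDHB13, -2.18 for PCDHB14, -4.24 for PCDHGA10 and -2.99 for PCDHGB7. It was higher in MCF10AT1 than in MCF10A by a log2 difference of 3.12 for PCDHGB2. It was lower in MCF10CA1h than in MCF10A by a log2 difference of -4.47 for PCDHB4, -3.96 for PCDHB9, -5.78 for PCDHB10, -4.29 for PCDHB11, -4.11 for PCDHB12 and -3.97 for PCDHB14. It was lower in MCF10CA1h than in MCF10AT1 by a log2 difference of -2.68 for PCDHA10 and -0.87 for PCDHGC3. It was higher in MCF10CA1h than in MCF10AT1 by a log2 difference of 5.59 for PCDHA12. Not all of these calls held in each of the 12 fits that left out 1 library. For MCF10AT1 against MCF10A, PCDHGB2 and PCDHGB7 were called in 4 of 12 and PCDHB4 in 6 of 12. For MCF10CA1h against MCF10AT1, PCDHGC3 was called in 6 of 12. Within MCF10CA1h alone, PCDHB10 and PCDHB12 were too low to be tested, and they entered the fit of 18 libraries through the other lines. The comparisons with MCF10A share the 6 MCF10A libraries, and each cell line is 1 clone per arm, so differences between clones and between lines cannot be told apart. Groups of 3 libraries were too small for a test of outlying values.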

How the results depend on the processing

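Of 859 values of called members under the alternatives, 679 were in the same direction and called, 180 were in the same direction and not called, and 0 were reversed. The count of 5 members for METTL3 against control in MCF10A was 3 with a mean of at least 50, 0 at an adjusted p of 0.01 and 2 in a joint fit, and 0 to 6 with 1 library left out. The count of 4 members for METTL3 against control in MCF10AT1 was 2 with a pseudocount of 0.5, 2 with no filter, 2 with a mean of at least 50, 2 at equal library sums, 10 with a replicate block, 0 at an adjusted p of 0.01 and 12 in a joint fit, and 0 to 5 with 1 library left out. The count of 6 members for METTL3 against control in MCF10CA1h was 3 with a mean of at least 50 and 1 at an adjusted p of 0.01, and 1 to 6 with 1 library left out. The count of 2 members for MCF10AT1 against MCF10A controls was 1 with a mean of at least 50, 1 at equal library sums and 0 at an adjusted p of 0.01, and 0 to 6 with 1 library left out. The count of 7 members for MCF10CA1h against MCF10A controls was 3 with a mean of at least 50, and 5 to 8 with 1 library left out. The count of 6 members for MCF10CA1h against MCF10AT1 controls was 2 with a mean of at least 50, 3 at equal library sums and 3 at an adjusted p of 0.01, and 3 to 8 with 1 library left out. The count of 12 members for the METTL3 difference, MCF10AT1 minus MCF10A was 4 with a mean of at least 50 and 6 at an adjusted p of 0.01, and 8 to 14 with 1 library left out. The count of 6 members for the METTL3 difference, MCF10CA1h minus MCF10A was 1 with a mean of at least 50, and 5 to 6 with 1 library left out. The count of 3 members for the METTL3 difference, MCF10CA1h minus MCF10AT1 was 5 with a replicate block and 7 with a replicate block within each line, added after seeing the data, and 2 to 7 with 1 library left out. A mean of at least 50 leaves 7 to 16 members tested, which lowers the counts by itself, and for the others the cause was not tested. Equal sums put the median log2 difference of all genes at up to -0.26 (MCF10AT1 minus MCF10A) without reversing a called member. Without the block in MCF10A and MCF10CA1h the counts were within 1.5 times of those with it (6 and 5 with the replicate block), and PCDHB11 was no longer called in MCF10CA1h (limma adjusted p 0.055), where the letters did not pair. Fits leaving out a library assume that the remaining pair varies like the other groups. Depth is unknown, so a value of 0 was not detectable, not absent.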
